A study of Mus musculus with 6 samples.

Results

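Tetraspanins are a family of small proteins that cross the membrane several times and gather integrins, proteases and signalling proteins into lateral membrane domains. Several of them, CD63, CD9 and CD81 among them, are abundant on the vesicles that cells release, and CD63 also lies in the membranes of late endosomes, lysosomes and the melanosomes of pigment cells. IGSF8, also called EWI-2, is an immunoglobulin-domain protein that binds CD9 and CD81 directly. Here 10 genes were followed: the 9 tetraspanin genes Tspan10, Cd63, Cd9, Cd81, Cd82, Cd151, Tspan3, Tspan4 and Tspan31, and Igsf8, out of 39179 genes in the count tables. Each was found by its Ensembl gene identifier, and all 10 were present. Tspan10 and Igsf8 had been chosen because their counts were lower in Sirpa-KO, so their values are given as a description with no test. The 8 other tetraspanins were chosen by family.

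RNA was taken from B16-F10, a melanoma line of the C57BL/6 mouse grown in culture, as a Sirpa-knockout (KO, 3 libraries) and a Sirpa-wild type (WT, 3 libraries). Sirpa encodes the CD47 receptor SIRPα, and the series compares the steady-state RNA of the tumour lines with and without it. The sources used here give neither the edit, nor whether the knockout line is 1 clone, nor whether the replicates of a genotype were grown separately. A p-value therefore speaks only of the spread among these libraries, which may be technical. One label field gives the cell line as Pmel and the tissue as tumor. All 10 melanocyte markers examined (Mitf, Sox10, Tyr, Tyrp1, Dct, Pmel, Mlana, Slc45a2, Gpnmb and Mc1r) had counts in every library, with a summed level of 13656 to 18238 CPM (counts per 1000000 counts of the library) in Sirpa-KO and 16996 to 20265 CPM in Sirpa-WT. The 10 leukocyte markers summed to 4.42 to 29.9 CPM in Sirpa-KO and 9.72 to 26.2 CPM in Sirpa-WT, and Ptprc, which defines them, had 1 count in all.

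One library stood apart. Sirpa-KO replicate 1 (the deep library) held 29877270 counts, and the 5 others (the shallow libraries) held 338824 to 411695, so that 1 count equalled 2.43 to 2.95 CPM in a shallow library. The share of counts on pseudogenes was 0.216% in the deep library, against 27.0% to 30.2% in the others. The deep library was compared in CPM with the mean of the shallow ones, over the 4294 protein-coding genes tested in the latter. Their median stood 0.89 log2 units higher in the deep library. A share does not depend on depth, so the deep and shallow libraries differed in more than depth. Whether their reads were aligned in the same way was not tested, and it bears on every shallow value below. Each comparison is therefore given over all 6 libraries and over the 5 shallow ones. Sirpa itself had 1584, 6 and 6 counts in Sirpa-KO replicates 1 to 3, against 12, 7 and 3 in Sirpa-WT. The groups overlapped in CPM, so Sirpa counts do not check the genotype labels.

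Tspan10 encodes oculospanin, a tetraspanin known for its expression in pigment cells of the skin and eye. It belongs to the TspanC8 group, whose members carry the protease ADAM10 out of the endoplasmic reticulum. The gene (ENSMUSG00000039691) lies on the plus strand of GRCm38 chromosome 11, from 120442644 to 120446950, with 4 merged exons of 1802 bases in all. It had 3332, 53 and 84 counts in Sirpa-KO, against 197, 161 and 165 counts in Sirpa-WT. In CPM that was 112, 156 and 228 in Sirpa-KO, against 479, 468 and 478 in Sirpa-WT. The groups did not overlap, the Sirpa-WT values lay close together, and the deep library was the lowest of the 6. Sirpa-KO replicates 2 and 3 averaged 192 ± 50.9 CPM (SD, n = 2), with a mean of 475 ± 5.64 CPM in Sirpa-WT (SD, n = 3). At 161 to 197 counts per library, counting error alone is larger than that Sirpa-WT SD, so the SD is no measure of precision. Of all genes tested, 10.2% were lower in Sirpa-KO without overlap over 6 libraries and 11.8% over the 5 shallow ones, and no more is read from this for a gene chosen by it. The log2 fold change was -1.67 ± 0.38 (SE) over 6 libraries and -1.41 ± 0.16 (SE) over the 5 shallow ones. Over those 5, its level was 2.66 times higher in Sirpa-WT. The summed melanocyte markers were also lower in the shallow Sirpa-KO libraries, at 13656 and 14326 CPM, against 16996 to 20265 CPM in Sirpa-WT, while the deep library stood at 18238 CPM. Their part in the Tspan10 values was not tested. In bulk RNA, a smaller share of cells that express a gene and less of its RNA per cell cannot be told apart. Tspan10 shared none of its 1799 words of 25 bases with annotated pseudogenes, and no other gene's exons overlapped its own.

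The 250 bases before the RefSeq start of Tspan10 and of Igsf8 are shown because these are the 2 members that were lower in Sirpa-KO. They were searched on both strands for the E-box letters CACGTG and CATGTG, the kind bound by the melanocyte factor MITF, for the GC-box letters GGGCGG and for the TATA-box letters TATAAA. Matches are in capitals, and the motifs do not overlap each other. Tspan10 lies at chr11:120442381-120442630 and Igsf8 at chr1:172312117-172312366 of GRCm38.p6, both on the plus strand.
Tspan10: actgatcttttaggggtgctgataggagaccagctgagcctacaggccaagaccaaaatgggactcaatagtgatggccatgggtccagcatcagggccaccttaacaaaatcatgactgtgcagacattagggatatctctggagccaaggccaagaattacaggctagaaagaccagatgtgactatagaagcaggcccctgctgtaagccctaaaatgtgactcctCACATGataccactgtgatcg
Igsf8: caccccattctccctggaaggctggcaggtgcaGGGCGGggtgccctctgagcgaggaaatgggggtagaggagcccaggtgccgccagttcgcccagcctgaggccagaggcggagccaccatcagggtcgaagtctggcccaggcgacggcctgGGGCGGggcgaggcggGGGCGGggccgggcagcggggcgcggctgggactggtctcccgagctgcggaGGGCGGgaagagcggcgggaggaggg
The Tspan10 window held 1 CATGTG match, read as CACATG on the printed strand and starting 21 bases before the start. The Igsf8 window held 4 GGGCGG matches. Neither window held any other of the motifs searched. Among the other members, Cd9 and Tspan3 also had a window with CATGTG, Tspan4 had one with CACGTG, and Cd9, Cd81, Cd82, Cd151 and Tspan4 had at least 1 with GGGCGG. Among 32851 windows of 250 bases before RefSeq starts, 12.3% held CATGTG, 6.02% held CACGTG, 32.7% held GGGCGG and 12.4% held TATAAA. The starts on 1 chromosome were left out of these windows. G and C made up 48.8% of the Tspan10 window and 74.8% of the Igsf8 window. Such matches are a description of the letters and not evidence of binding.

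Igsf8 binds CD9 and CD81 and, in human cells, links them to the actin cytoskeleton through ezrin and its relatives. The gene (ENSMUSG00000038034) lies on the plus strand of chromosome 1, from 172261641 to 172319841, with 11 merged exons of 5217 bases in all; the RefSeq start used above lies inside this span. It had 1097, 3 and 8 counts in Sirpa-KO, against 17, 22 and 19 counts in Sirpa-WT. In CPM that was 36.7, 8.85 and 21.8 in Sirpa-KO, against 41.3, 64.0 and 55.0 in Sirpa-WT. The groups did not overlap, but the deep library came close to the lowest Sirpa-WT library, and the 2 shallow Sirpa-KO values rest on 11 counts together. The log2 fold change was -1.36 ± 0.54 (SE) over 6 libraries and -1.86 ± 0.43 (SE) over the 5 shallow ones. Without Sirpa-KO replicate 3 the 5-library value was -2.66, and with limma voom the 6-library value was -0.67.

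**Figure D1:**
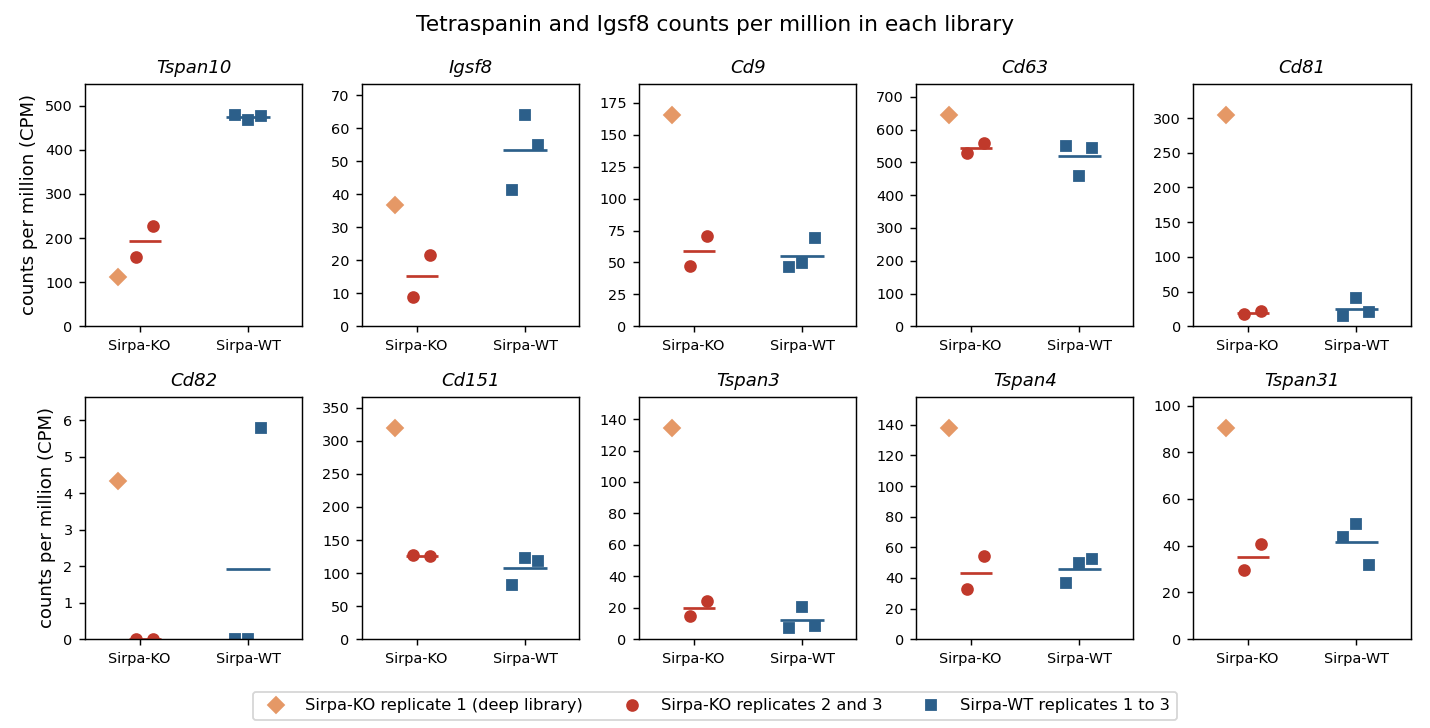
CPM (vertical axis, starting at 0, a scale of its own in each panel) of the 10 genes in the 6 libraries, with Sirpa-KO left and Sirpa-WT right; bars mark the mean of Sirpa-KO replicates 2 and 3 and of the 3 Sirpa-WT libraries. Tspan10 and Igsf8 are lower in every Sirpa-KO library than in any Sirpa-WT library. Cd81 and Tspan3 stand out in the deep library, at 304 and 134 CPM, and Cd63, Cd9, Cd151, Tspan4 and Tspan31 are also highest there.

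Cd63 had the highest level per exon length of the 10 genes in every library. Its protein is a marker of late endosomes and released vesicles and takes part in sorting the melanosome matrix protein PMEL. Cd63 had 19237, 179 and 206 counts in Sirpa-KO, against 227, 158 and 188 in Sirpa-WT. In CPM that was 644, 528 and 560.3 in Sirpa-KO, against 551, 459.6 and 544 in Sirpa-WT. The groups overlapped. The log2 fold change was -0.0015 ± 0.30 over 6 libraries (SE, edgeR adjusted p = 0.998) and -0.052 ± 0.13 over the 5 shallow ones (SE, edgeR adjusted p = 0.865). The pooled counts of the shallow libraries gave a Sirpa-KO to Sirpa-WT ratio of 1.05, with an exact 95% interval of 0.918 to 1.19 that covers counting error alone. Cd63 shared 16.9% of its 25-base words with pseudogenes. Its annotated pseudogene Cd63-ps had 143, 27 and 30 counts in Sirpa-KO, against 16, 13 and 16 in Sirpa-WT, and whether reads passed between the gene and its pseudogene was not tested.

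Cd9 and Cd81, the partners of IGSF8, sit at the cell surface and on released vesicles. Cd9 had 165, 47.2 and 70.7 CPM in Sirpa-KO, against 46.2, 49.4 and 69.5 CPM in Sirpa-WT, so that the shallow libraries of both genotypes overlapped and the deep one stood above them. Its log2 fold change was 0.62 ± 0.52 over 6 libraries (SE, edgeR adjusted p = 0.616) and 0.0030 ± 0.30 over 5 (SE, edgeR adjusted p = 0.997). Its annotated pseudogene Cd9-ps had 7, 5 and 5 counts in Sirpa-KO, against 4, 2 and 1 in Sirpa-WT. Cd81 had 9081, 6 and 8 counts in Sirpa-KO, against 6, 14 and 7 in Sirpa-WT, and did not pass the count filter. That is 304, 17.7 and 21.8 CPM in Sirpa-KO, against 14.6, 40.7 and 20.3 CPM in Sirpa-WT. Without the deep library the Sirpa-KO to Sirpa-WT ratio of pooled Cd81 counts was 0.808. Its exact 95% interval of 0.392 to 1.60 covers counting error alone and not the spread between libraries.

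Cd151 binds laminin-receptor integrins and holds them in tetraspanin domains. It had 9536, 43 and 46 counts in Sirpa-KO, against 34, 42 and 41 in Sirpa-WT. In CPM that was 319, 127 and 125 in Sirpa-KO, against 82.6, 122 and 119 in Sirpa-WT. Cd151 was the 1 gene of the 8 chosen by family whose groups did not overlap, with Sirpa-KO higher. Of all genes tested, 30.7% did not overlap over 6 libraries (20.4% with Sirpa-KO higher), and 38.1% over the 5 shallow ones (26.3% with Sirpa-KO higher). The margin over the highest Sirpa-WT library was small in the shallow Sirpa-KO libraries. The log2 fold change was 0.66 ± 0.45 over 6 libraries (SE, edgeR adjusted p = 0.575) and 0.12 ± 0.22 over 5 (SE, edgeR adjusted p = 0.812). Leaving out Sirpa-WT replicate 1 turned the 5-library value to -0.055. Tspan4, a tetraspanin of the migrasomes that moving cells leave behind, starts 3760 bases beyond Cd151 on chromosome 7. It had 138, 32.5 and 54.4 CPM in Sirpa-KO, against 36.4, 49.4 and 52.1 CPM in Sirpa-WT. Its log2 fold change was 0.55 ± 0.57 over 6 libraries (SE, edgeR adjusted p = 0.684) and -0.17 ± 0.34 over 5 (SE, edgeR adjusted p = 0.829), and the sign thus turned with the deep library.

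Tspan31 lies tail to tail with Cdk4 and is known in human tumours as a gene amplified together with it. It had 90.3, 29.5 and 40.8 CPM in Sirpa-KO, against 43.7, 49.4 and 31.8 CPM in Sirpa-WT. The groups overlapped, and the log2 fold change was 0.22 ± 0.50 over 6 libraries (SE, edgeR adjusted p = 0.839) and -0.36 ± 0.36 over 5 (SE, edgeR adjusted p = 0.63). Exons of Cdk4 on the opposite strand cover 39.8% of its exonic bases, and the counting used no strand, so reads there cannot be assigned to either gene. Tspan3, a broadly expressed tetraspanin, had 4010, 5 and 9 counts in Sirpa-KO, against 3, 7 and 3 in Sirpa-WT. The ratio of its pooled counts in the shallow libraries was 1.68, with an exact 95% interval of 0.732 to 3.88. Cd82, known in human cancers as the metastasis suppressor KAI1, had 130, 0 and 0 counts in Sirpa-KO, against 0, 0 and 2 in Sirpa-WT. A count of 0 in a shallow Sirpa-KO library allows up to 8.16 to 8.85 CPM, and the deep library had 4.35 CPM, so Cd82 was under what the shallow libraries can show.

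Of the 8 tetraspanins chosen by family, 5 passed the count filter, and none of these 5 passed the edgeR test in either comparison. At an unadjusted p under 0.05 the number was also 0 in each, and DESeq2 called 0 of the 5 over 6 libraries. Over the 5 shallow libraries DESeq2 gave an adjusted p to Cd63 alone, which it did not call, and none to the 4 others. Over 6 libraries the edgeR test called 0 of 5397 genes, or 0%, with 344 (6.37%) at an unadjusted p under 0.05. Over the 5 shallow libraries it called 322 of 5510 genes, or 5.84%, of which 73 (1.32%) were higher and 249 (4.52%) lower in Sirpa-KO, and 1146 (20.8%) had an unadjusted p under 0.05. With library size alone as the scaling, 279 were higher and 128 lower. Leaving out Sirpa-KO replicate 2 or 3 brought the 322 calls to 125 or 127, and leaving out Sirpa-WT replicate 2 brought them to 214. The median log2 fold change of the 5 tested family members was -0.052 over 5 libraries, beside 0.013 for all genes, and 0.55 over 6 libraries, beside 0.11 for all genes. The 3 others, Cd81, Cd82 and Tspan3, had too few counts in the shallow libraries. At its CPM in the deep library, a shallow library of 338824 counts would hold 103 counts of Cd81 and 45.5 of Tspan3. The shallow libraries held at most 14 and 9, and the reason for this was not tested.

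**Figure D2:**
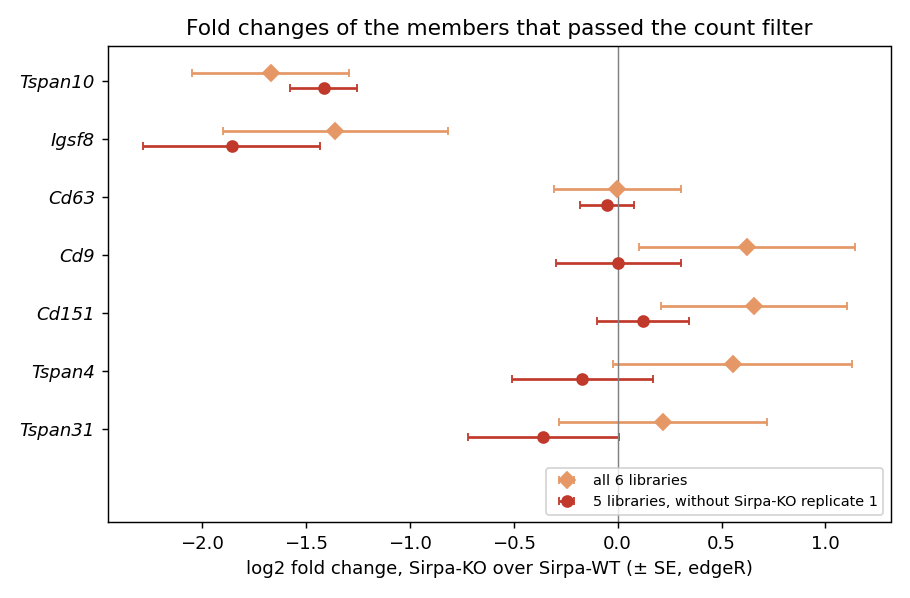
Log2 fold change of Sirpa-KO over Sirpa-WT (horizontal axis, bars are the SE from edgeR) for the 7 members that passed the count filter, over all 6 libraries (diamonds) and over the 5 shallow libraries (circles). Tspan10 and Igsf8, chosen for this difference, lie well below 0, and the 5 others lie between -0.36 and 0.66.

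**Figure D3:**
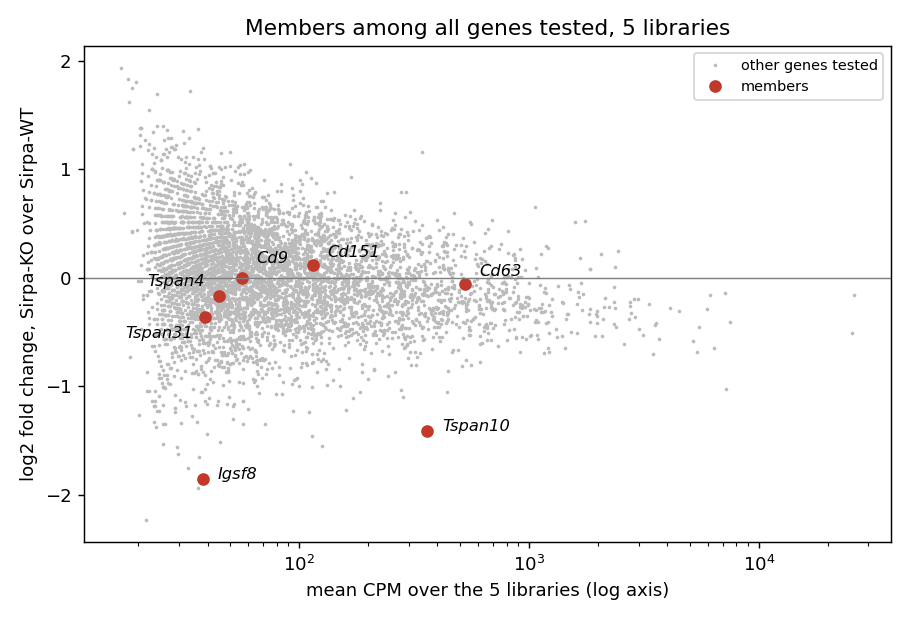
Log2 fold change over the 5 shallow libraries (vertical axis) against mean CPM (horizontal log axis) for the genes tested, with the 7 tested members in red. Tspan10, at -1.41, lies at the lower edge of the points at its abundance, and Igsf8, at -1.86, lies among low counts where fold changes spread widely.

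Because a ratio of counts within a library needs no scaling, the members were also set against each other. The Tspan10 to Cd63 count ratio was 0.173, 0.296 and 0.408 in Sirpa-KO, against 0.868, 1.02 and 0.878 in Sirpa-WT. The exact 95% intervals, which cover counting error only, reached up to 0.528 in Sirpa-KO and down to 0.708 in Sirpa-WT. Tspan10 to Adam10, its TspanC8 client, stood at 0.646, 1.43 and 2.71 in Sirpa-KO, against 4.92, 5.03 and 4.34 in Sirpa-WT; Adam10 was singled out after its values were seen. The Igsf8 to Cd9 ratio was 0.222, 0.188 and 0.308 in Sirpa-KO, against 0.895, 1.29 and 0.792 in Sirpa-WT. Here the intervals of single shallow libraries overlapped between genotypes, reaching up to 0.700 in Sirpa-KO and down to 0.410 in Sirpa-WT. The ratio of Igsf8 to its other partner Cd81 was 0.121, 0.5 and 1 in Sirpa-KO, against 2.83, 1.57 and 2.71 in Sirpa-WT. Its intervals overlapped too, reaching up to 3.06 in Sirpa-KO replicate 3 and down to 0.769 in Sirpa-WT replicate 2. In the deep library Igsf8 stood at 36.7 CPM, near the lowest Sirpa-WT library at 41.3 CPM. Cd9 and Cd81 stood there at 165 and 304 CPM, above every shallow library. The median protein-coding gene also stood higher there. Against that median, Igsf8 lay 0.94 log2 units below, and Cd9 and Cd81 lay 0.62 and 2.72 above. The part of numerator and denominator in the deep-library ratios was not tested. All these ratios rest on counts already described and add no independent test.

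**Figure D4:**
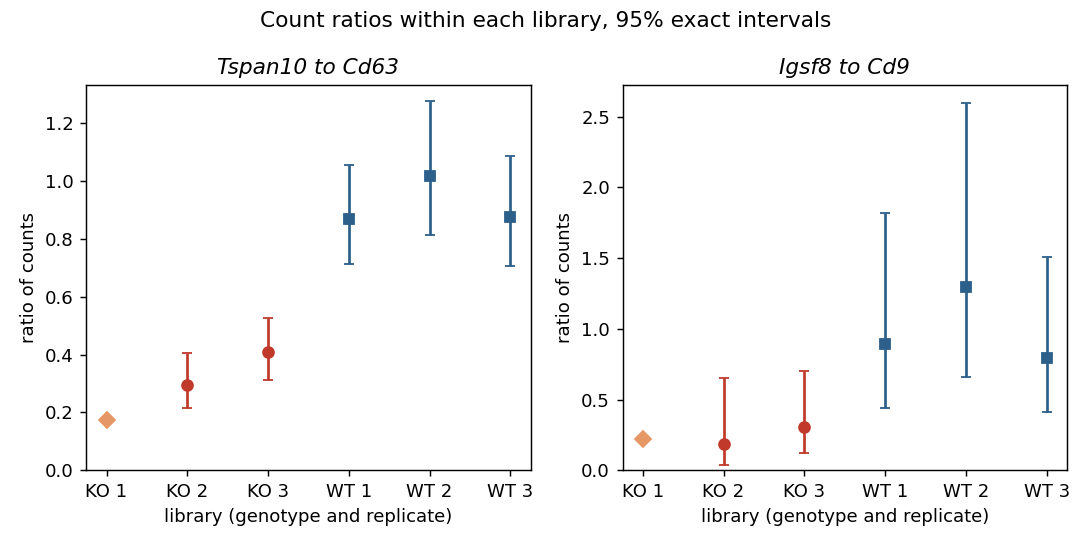
Ratio of Tspan10 to Cd63 counts (left) and of Igsf8 to Cd9 counts (right) in each library (horizontal axis, Sirpa-KO 1 to 3 then Sirpa-WT 1 to 3), with exact 95% intervals for counting error only. The Tspan10 ratio is at most 0.408 in Sirpa-KO and at least 0.868 in Sirpa-WT, and the Igsf8 intervals of the shallow libraries are wide.

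Levels of different genes were compared per length, as CPM per kilobase of exon (RPKM). Cd63 stood first, at 625 RPKM in the deep library, 528 ± 21.9 RPKM in Sirpa-KO replicates 2 and 3 (SD, n = 2), and 503 ± 49.5 RPKM in Sirpa-WT (SD, n = 3). Tspan10 stood at rank 7 of 10 in the deep library (61.9 RPKM) and at rank 2 both in the shallow Sirpa-KO libraries (107 ± 28.3 RPKM) and in Sirpa-WT (263 ± 3.13 RPKM). As in CPM, that Sirpa-WT SD is smaller than counting error alone. Cd151 stood at rank 3 in Sirpa-WT, with 53.6 ± 10.9 RPKM. In Sirpa-WT, the ranges over libraries of Cd63, Tspan10 and Cd151 did not overlap each other or those of the rest. The levels of Tspan31 (27.5 RPKM), Cd9 (26.9 RPKM), Tspan4 (21.1 RPKM), Cd81 (11.1 RPKM), Igsf8 (10.2 RPKM) and Tspan3 (7.01 RPKM) followed in that order, with ranges that overlapped between each neighbouring pair. Opposite-strand exons of Cdk4 cover 39.8% of the Tspan31 exonic bases, and those of Chid1 cover 13.4% of the Tspan4 ones. Reads there cannot be assigned to either gene, so the levels and places of Tspan31 and Tspan4 are uncertain. Cd82 was last in each group. Cd81 stood at rank 3 in the deep library, with 134 RPKM, at rank 8 in the shallow Sirpa-KO libraries and at rank 7 in Sirpa-WT. Tspan10 made up 5.73%, 16.3% and 19.9% of all member counts in Sirpa-KO, against 36.8%, 35.4% and 34.5% in Sirpa-WT.

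**Figure D5:**
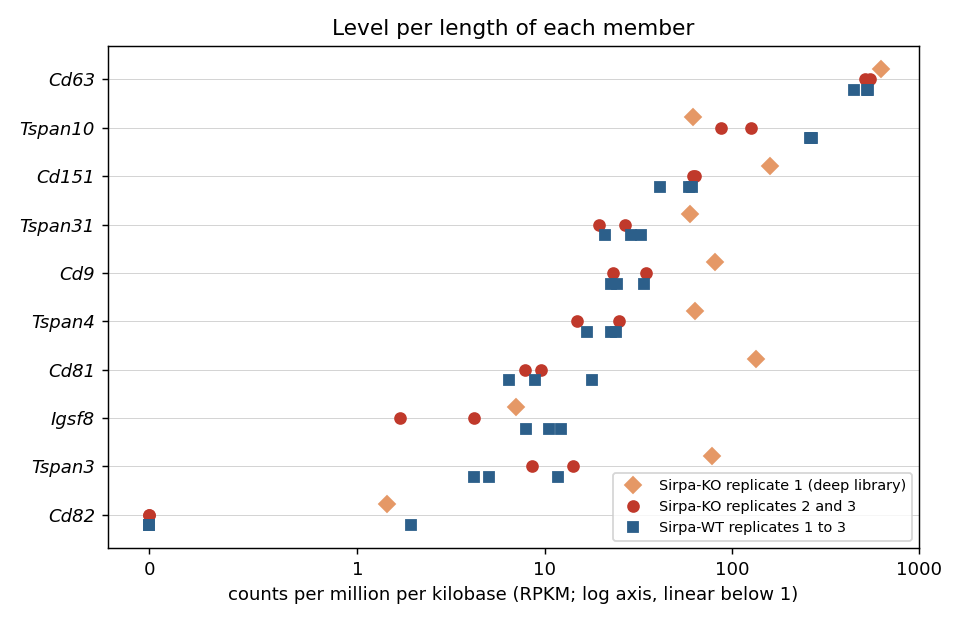
Level per length (RPKM, horizontal log axis, linear below 1) of each member, ordered from top to bottom by the mean over the 3 Sirpa-WT libraries, with the deep library as diamonds, Sirpa-KO replicates 2 and 3 as circles and Sirpa-WT as squares. Cd63 is highest throughout, and Cd81 stands at 134 RPKM in the deep library against 6.42 to 17.9 RPKM in the shallow ones.

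The other tetraspanin genes of the mouse were scarce in the shallow libraries. Of 22 listed, 4 had no count in the deep library, 11 had no count in any shallow library, 19 had at most 5 counts in each, and 1 passed the count filter. That gene was Tspan17, another TspanC8 member, which had 27.0, 20.7 and 35.4 CPM in Sirpa-KO, against 41.3, 37.8 and 23.2 CPM in Sirpa-WT. It did not pass the test, with a log2 fold change of -0.46 ± 0.45 over 6 libraries (SE, edgeR adjusted p = 0.667) and -0.40 ± 0.41 over 5 (SE, edgeR adjusted p = 0.63). Tspan12, which takes part in norrin and frizzled signalling in retinal vessels, had 109, 14.8 and 19.0 CPM in Sirpa-KO, against 19.4, 8.73 and 17.4 CPM in Sirpa-WT. Tspan14, also of the TspanC8 group, had 65.3, 14.8 and 16.3 CPM in Sirpa-KO, against 12.1, 8.73 and 5.79 CPM in Sirpa-WT. Its groups did not overlap, but it lay under the filter, with at most 6 counts in a shallow library. The leukocyte tetraspanins Cd37 and Cd53 had no count in any shallow library, and 16 and 0 counts in the deep one.

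Of 25 genes listed as tetraspanin partners, proteases, linkers and cargo, 15 were tested. Over 6 libraries none was called, and over the 5 shallow ones 1 rose and 1 fell, beside 1.32% and 4.52% of all genes; at an unadjusted p under 0.05 there were 2 over 6 libraries (13.3%, beside 6.37% of all genes) and 4 over 5 (26.7%, beside 20.8%). The median log2 fold change of the 15 was 0.45 over 6 libraries, beside 0.11 for all genes, and 0.074 over 5, beside 0.013. Pmel, the melanosome matrix cargo that CD63 helps to sort, had 1221, 691 and 781 CPM in Sirpa-KO, against 1049, 861 and 909 CPM in Sirpa-WT. It fell over the 5 shallow libraries, by 0.48 ± 0.11 on the log2 scale (SE, edgeR adjusted p = 0.00154), while the deep library stood above all Sirpa-WT libraries, and the 6-library value was -0.23 ± 0.40 (SE, edgeR adjusted p = 0.808). Without Sirpa-KO replicate 2 the Pmel call was lost (-0.41, edgeR adjusted p = 0.146). Itga4, the α4 integrin chain found in tetraspanin domains, had 257, 91.5 and 76.2 CPM in Sirpa-KO, against 48.6, 29.1 and 31.8 CPM in Sirpa-WT. It rose over 5 libraries by 1.04 ± 0.30 on the log2 scale (SE, edgeR adjusted p = 0.0153), and stood at 1.79 ± 0.56 over 6 (SE, edgeR adjusted p = 0.574). Its call ended without Sirpa-WT replicate 2 (edgeR adjusted p = 0.0932), Sirpa-WT replicate 3 (0.0504), Sirpa-KO replicate 2 (0.263) or Sirpa-KO replicate 3 (0.0794), at log2 fold changes of 0.89 to 1.16, and with no filter (1.005, adjusted p = 0.0606) or after the trend removal described under processing (0.79, adjusted p = 0.177). DESeq2 gave it no adjusted p.

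With Pmel, Msn and Itgb1 had the highest mean CPM of the partners over the shallow libraries, and these 2 did not pass the test. Msn, the moesin linker to actin, had 551, 1065 and 1047 CPM in Sirpa-KO, against 1457, 1056 and 1013 CPM in Sirpa-WT, with a log2 fold change of -0.28 ± 0.10 over 5 libraries (SE, edgeR adjusted p = 0.0857) and -0.55 ± 0.47 over 6 (SE, edgeR adjusted p = 0.624). Itgb1, the β1 integrin chain, had 1219.6, 434 and 498 CPM in Sirpa-KO, against 401, 439 and 353 CPM in Sirpa-WT, where the groups overlapped among the shallow libraries. Its log2 fold change stood at 0.11 ± 0.14 over 5 libraries (SE, edgeR adjusted p = 0.715) and 0.68 ± 0.48 over 6 (SE, edgeR adjusted p = 0.579). The 2 relatives of IGSF8 on the list, singled out after their values were seen, were scarce: Ptgfrn had no count in any shallow library and 11 in the deep one. Igsf3 had 984, 4 and 3 counts in Sirpa-KO, against 5, 2 and 4 in Sirpa-WT.

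The genes whose log2 CPM over the 6 libraries followed that of Tspan10 most closely were looked for among 2514 protein-coding genes with a mean of at least 50 CPM over the shallow libraries. Among the 5 closest were Abhd16a (Pearson's r = 0.994), Gyg (0.987), Plekha5 (0.983) and Hmgn3 (0.983). Over the 5 shallow libraries r was 0.988 for Abhd16a, 0.988 for Gyg, 0.969 for Plekha5 and 0.968 for Hmgn3. Abhd16a had 22.7, 29.5 and 40.8 CPM in Sirpa-KO, against 65.6, 72.7 and 78.1 CPM in Sirpa-WT. These r values describe 6 points that share depth and genotype, and they were picked as the highest.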

How the data were processed

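RNA of 6 libraries was sequenced after preparation with a stranded mRNA kit, per the labels' protocols. The authors deposited raw counts of fragments per gene, summed over the exons of Ensembl release 75 (GRCm38) by featureCounts 1.5.1 with no strand option, per the file headers; STAR 2.6.0 is named in the submitters' processing notes. Titles gave the genotype and the replicate number. The members and lists were chosen with earlier results of these data known, and so was the 5-library comparison.

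CPM and RPKM were computed from the library totals and the exonic lengths in the files. A gene was tested if it passed filterByExpr at a minimum count of 10 (28.9 CPM in the median shallow library). The test was the 2-sided quasi-likelihood test of edgeR (TMM scaling, robust fit), adjusted by Benjamini-Hochberg over all genes tested, at 0.05; SE is the log2 fold change divided by the root of its F statistic. Intervals are exact binomial (95%) and, like the floor of 3 counts, cover counting error only. Gene names and types came from GENCODE M21, promoters from RefSeq (GRCm38.p6; all 10 members matched). The log2 ratio to the deep library used 2 CPM as pseudocount. No 2 shallow replicates agreed within sampling noise (chi-square of 1.15 to 1.45 per degree of freedom). Separate library preparations of 1 culture could also differ by this much, so it does not show separate samples. Each library was still counted as 1 sample. The common coefficient of variation between libraries in edgeR was 7.25% over the 5 shallow libraries and 75.8% over 6. The tests were tried on simulated data first. Named genes were the members, Sirpa, the 3 most abundant other tetraspanins, up to 4 called partners and otherwise the 3 most abundant, and the 5 genes most like Tspan10, of which 1 is not reported here. The software was edgeR 4.0.16, DESeq2 1.42.0 and limma 3.58.1 in R 4.3.3, with Python 3.11.15. Alternatives were RLE scaling, library size alone, no filter, DESeq2, limma voom, the replicate number as a block, protein-coding genes only, and each library left out. For 5 libraries, a lowess trend (span 0.3) of each library's deviations on each gene's deep-to-shallow ratio was also taken out. Single-cell libraries of the study were not analysed here.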

Additional observations from a re-analysis of the deposited data

How the results depend on the processing

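The count of called family members was 0 in each comparison and stayed 0 under every alternative run, as did that of the other tetraspanins. Over 6 libraries edgeR called 0 genes of any kind, also under each edgeR alternative except without Sirpa-KO replicate 1. DESeq2 called 1 gene in all over 6 libraries. A count of 0 in those fits therefore says nothing particular about the family. Over 5 libraries DESeq2 gave no adjusted p to 4 of the 5 family members, to the 1 other tetraspanin or to 11 of the 15 partners. Its counts there say nothing about those genes. Called partners over 5 libraries were 2, became 1 with no filter, 1 with DESeq2 (which gave Itga4 no adjusted p) and 1 after the lowess trend on the deep-to-shallow ratio was taken out, and ran from 0 to 3 with each library left out. Over 6 libraries they were 0, became 1 with limma voom, and ran from 0 to 2. Tspan10 and Igsf8 kept their sign throughout. Both were chosen for lower Sirpa-KO counts and their groups did not overlap, so this was largely set beforehand. Tspan10 ran from -1.73 (without Sirpa-KO replicate 3) to -1.13 (trend taken out) over 5 libraries, and from -2.04 to -1.41 over 6; Igsf8 ran from -2.66 to -1.41 and from -1.86 to -0.67. Signs turned for uncalled genes near 0. Over 5 libraries Cd9 was -0.00016 with RLE, -0.033 with no filter, -0.014 with DESeq2, -0.0030 with limma voom, -0.022 among protein-coding genes, -0.13 with the replicate block and -0.22 without the trend, and ran from -0.34 to 0.23 with each library left out. Cd151 was -0.054 with the replicate block and -0.10 without the trend, and ran from -0.055 to 0.22; Cd63 was 0.086 with library size alone, and Tspan4 ran from -0.61 to 0.12. Over 6 libraries Cd63 was 0.24 with library size alone, 0.011 with limma voom and 0.0016 with the replicate block. Tspan31 was -0.044 with no filter and -0.059 in protein-coding genes, and ran from -0.36 to 0.36; Tspan4 ran from -0.17 to 0.77. Apart from the left-out libraries, the cause of these shifts was not tested. Library size alone moved the median log2 fold change of all genes from 0.013 to 0.15 over 5 libraries and from 0.11 to 0.36 over 6, and split the 5-library calls into 279 higher and 128 lower in place of 73 and 249. The 322 calls became 132 with DESeq2, 104 without the trend and 198 among protein-coding genes, and ran from 125 to 351 with each library left out. Over 6 libraries limma voom called 1283 genes.

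The labels give both genotypes the replicate numbers 1 to 3. Nothing says that a number marks a shared culture or day, so the numbers were not taken as pairs. Deviations from the group means of same-numbered libraries correlated, across genes, with r = 0.027, -0.035 and 0.057. Of the 3 Sirpa-KO libraries, 1 correlated best with its own number. These r values cannot decide on pairing, because the Sirpa-KO mean holds the deep library. Sirpa-KO replicates 2 and 3 had nearly the same r with Sirpa-WT replicates 1 to 3 (-0.031, -0.035 and 0.062, and -0.022, -0.038 and 0.057). With the replicate block the 5-library fit called 316 genes and the same 2 partners. Cd81, Cd82 and Tspan3 fell short of the minimum count in the shallow libraries, and only for Cd82 was the level in the deep library also too low for that depth.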

Other observations

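The level in Sirpa-KO replicate 1 over the average of the 5 other libraries mixes depth with genotype. It was ranked against the 4294 protein-coding genes that passed the count filter over the 5 shallow libraries. Cd81, Tspan3 and Cd82 failed that filter and are not among the 4294. The filter removed genes scarce in the shallow libraries, so the high percentiles of Cd81 and Tspan3 are partly set by it. Cd81 lay 2.72 log2 units above the median gene (percentile 99.977), and Tspan3 2.10 above it (percentile 99.7). Tspan4, Cd9 and Cd151 lay 0.68, 0.62 and 0.56 above it, and Tspan31 0.28 above it. Cd63 lay 0.61 below it, Igsf8 0.94 below it and Tspan10 2.57 below it (percentile 3.56). These are values of 1 library against 5 and were not tested.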
